A study of Mus musculus with 4 samples.

Results

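The enzymes examined here convert steroids in mouse liver: the steroid hydroxylase gene Cyp17a1, the 3β-hydroxysteroid dehydrogenase genes Hsd3b2, Hsd3b3 and Hsd3b5, the genes Hsd17b2, Hsd17b6, Hsd17b10, Hsd17b11 and Hsd17b12 of the 17β-hydroxysteroid dehydrogenase group, and the 5α-reductase gene Srd5a1. They were chosen by gene symbol. Of the 10 genes, 9 had a probe set (a group of short probes for a transcript) that names only that gene, and all 9 were measured, that is, they exceeded a floor of 16 intensity units on 1 array or more. They stand among 12393 genes with a probe set of their own, of which 6947 were measured. In all, 14 probe sets named a member, and 1 of them named 3 genes at once. No probe set was annotated to Srd5a1, so no value is given for it. Liver RNA came from male mice of 3 to 5 months. Wild-type mice (129S1/SvImJ in the design text, 129Sv in the sample labels) and PPARα-null mice (129S4/SvJae) were either fed and killed as the dark period ended, or fasted for 24 hours. The RNA of each group of 5 mice was pooled on 1 Affymetrix MOE430A array, so that 4 arrays were compared. Whether every pool held all 5 mice differs between the sources. With 1 array per group there was no replicate error, no p-value could be computed, and each value describes 1 pool. Genotype and substrain cannot be told apart in this design.

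Steroid hormones made in the adrenal gland and gonads are taken up by the liver, where dehydrogenases, reductases and hydroxylases oxidise, reduce and inactivate them before conjugation and excretion. Hydroxysteroid dehydrogenases move hydrogen between a steroid and a nicotinamide cofactor, and several members of the 17β group also, or mainly, act on acyl-CoA or other lipids. PPARα is a nuclear receptor for fatty acids that drives fatty acid catabolism in the fasted liver. Ppara itself read 583 units in fed and 755 units in fasted wild-type liver, against 104 and 16.3 units in fed and fasted PPARα-null liver, which is the direction of the labels. The median intensity of the arrays lay between 14.4 and 14.6 units.

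The steroid enzymes went in 2 directions with fasting in wild-type liver, and the genotypes differed mainly in the fasted state. In fasted against fed wild-type liver, 3 of the 9 measured genes were at least 1.5-fold higher, where 8.20% of all measured genes were, and 6 were at least 1.5-fold lower, where 8.29% of all were. In PPARα-null liver 1 gene was higher with fasting (12.4% of all genes) and 5 were lower (18.0% of all). In the fasted state 1 gene was higher (8.58% of all) and 5 were lower (13.6% of all) in PPARα-null than in wild-type liver. In the fed state 0 were higher (2.38% of all) and 1 was lower (2.12% of all). The median log2 difference of the 9 genes was -0.94 for fasting in wild-type liver, -1.06 for fasting in PPARα-null liver, -0.68 between the fasted genotypes and -0.07 between the fed genotypes, beside medians over all measured genes of 0, -0.01, -0.01 and 0. These comparisons share arrays, so their values are not independent of each other. The members were chosen with earlier results of these data known, so the shares of all genes give scale and no test of an excess.

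**Figure D1:**
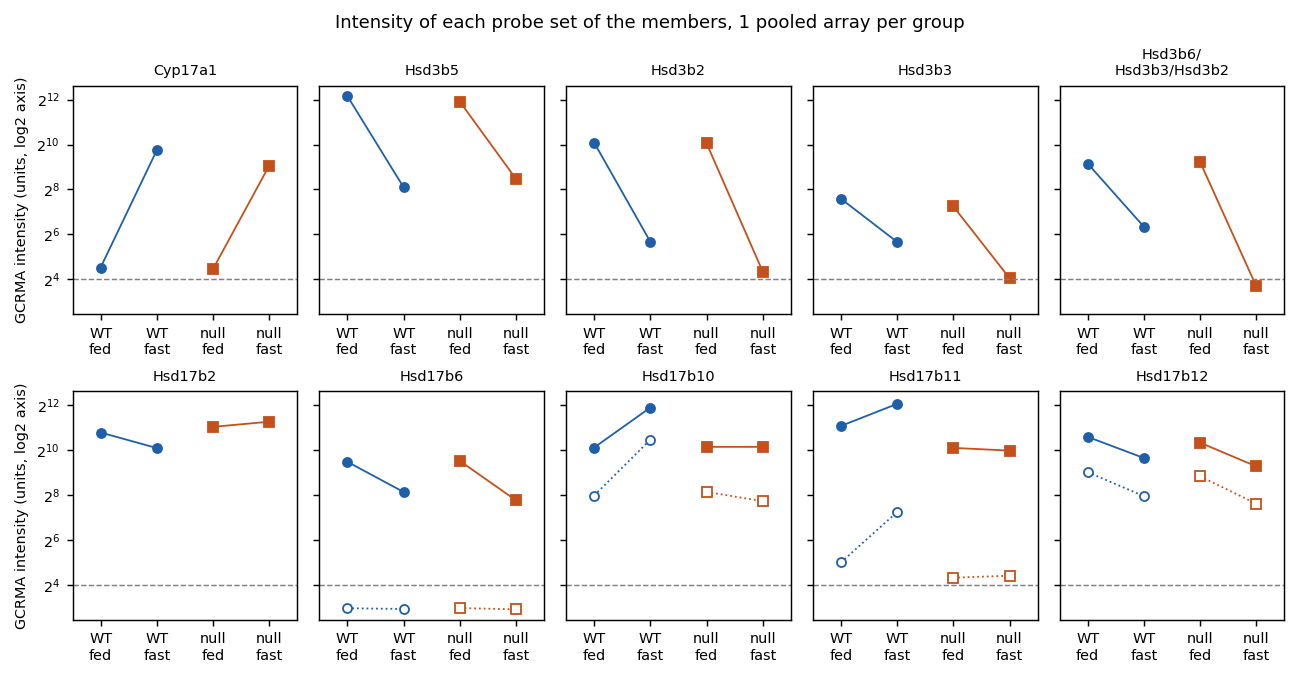
GCRMA intensity in units on a log2 axis for every probe set that names a member, with 1 point per pooled array (blue circles for wild-type, WT; orange squares for PPARα-null). Filled points show the probe set used for the gene or the shared Hsd3b probe set, open points the other probe sets, and the dashed line the floor of 16 units. The Hsd3b panels drop from fed to fasted in each genotype, Cyp17a1 climbs from near the floor, and Hsd17b10 and Hsd17b11 climb in wild-type liver only, from 1113 to 3840 and from 2173 to 4301 units.

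Cyp17a1 encodes the enzyme that hydroxylates pregnenolone and progesterone at carbon 17 and cleaves the side chain toward androgens. It stood at 22.8 units in fed wild-type, 858 units in fasted wild-type, 21.7 units in fed PPARα-null and 535 units in fasted PPARα-null liver. Both fasted arrays were thus far above both fed arrays, and the fed values were close to the floor. Cyp17a1 was 37.7-fold higher with fasting in wild-type and 24.6-fold higher in PPARα-null liver, at rank 5 and rank 8 from the highest among the 6947 measured genes. Because the fed values were so low, the size of these folds is uncertain: with a floor of 64 units the log2 differences were 3.75 and 3.06 in place of 5.24 and 4.62. Between the fasted genotypes Cyp17a1 was 1.61-fold lower in PPARα-null liver, and this log2 difference of -0.68 became -0.53, below the threshold, when the arrays were centred on their bright probe sets.

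Since Cyp17a1 is best known from steroid-producing glands, a marker list of adrenal and gonadal cells was read beside it. Of its 9 markers 7 had a probe set of their own, and these 7 (Star, Cyp11a1, Cyp11b2, Cyp21a1, Hsd3b1, Nr5a1 and Mc2r) did not exceed 16 units on any of the 4 arrays. Star carries cholesterol into mitochondria, and Cyp11a1 encodes the enzyme that cleaves its side chain, the first step of steroid synthesis.

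The Hsd3b genes encode enzymes that oxidise the 3β-hydroxyl group of steroids and shift the neighbouring double bond. Hsd3b5 differs from the others in acting mainly as a 3-ketosteroid reductase, and is known as a male-specific gene of mouse liver. In RefSeq the 3 genes and Hsd3b6 follow each other on chromosome 3 in the order Hsd3b5, Hsd3b2, Hsd3b3 and Hsd3b6, all on the minus strand, separated only by pseudogenes, and Hsd3b1 lies beyond them. The 250 bases before the start of the 3 genes are shown because these neighbours were all lower in the fasted arrays. They are from RefSeq, build GRCm38.p6, minus strand, at chr3:98645535-98645784 for Hsd3b5, at chr3:98763129-98763378 for Hsd3b3 (the upstream of its 2 annotated starts) and at chr3:98724544-98724793 for Hsd3b2, written 5′ to 3′. Capitals in Hsd3b5 and Hsd3b3 mark the bases that are identical between them in a local alignment.

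Hsd3b5: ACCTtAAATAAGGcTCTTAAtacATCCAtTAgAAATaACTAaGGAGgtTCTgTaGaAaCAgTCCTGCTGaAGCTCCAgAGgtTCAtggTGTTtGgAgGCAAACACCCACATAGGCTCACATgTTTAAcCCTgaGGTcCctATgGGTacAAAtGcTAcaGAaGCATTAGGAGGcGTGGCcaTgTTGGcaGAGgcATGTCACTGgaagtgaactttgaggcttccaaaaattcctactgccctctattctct
Hsd3b3: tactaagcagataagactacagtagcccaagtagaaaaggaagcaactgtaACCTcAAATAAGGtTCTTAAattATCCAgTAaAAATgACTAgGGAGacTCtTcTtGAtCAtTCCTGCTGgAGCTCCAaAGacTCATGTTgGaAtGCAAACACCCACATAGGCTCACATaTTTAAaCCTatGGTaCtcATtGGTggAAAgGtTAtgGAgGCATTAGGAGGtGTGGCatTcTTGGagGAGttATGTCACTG
Hsd3b2: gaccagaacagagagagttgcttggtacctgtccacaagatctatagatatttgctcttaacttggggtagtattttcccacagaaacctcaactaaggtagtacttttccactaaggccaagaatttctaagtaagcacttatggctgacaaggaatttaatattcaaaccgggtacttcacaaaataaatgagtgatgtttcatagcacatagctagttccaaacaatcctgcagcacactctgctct

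The Hsd3b5 and Hsd3b3 stretches aligned over 203 positions with 153 identical bases (75.4%). The best local alignment of Hsd3b2 covered 38 positions with Hsd3b3 and 31 positions with Hsd3b5, so the long shared stretch was found between Hsd3b5 and Hsd3b3 and not with Hsd3b2. The alignment was chosen after the intensities were seen and describes the sequences only.

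Hsd3b2 read 1087 units in fed wild-type, 50.5 units in fasted wild-type, 1064 units in fed PPARα-null and 20.0 units in fasted PPARα-null liver. The fed arrays were nearly equal and both fasted arrays were far below them. It was 21.5-fold lower with fasting in wild-type and 53.1-fold lower in PPARα-null liver, at rank 8 and rank 3 from the lowest among all measured genes. The larger fold rests on 20.0 units, near the floor: with a floor of 64 units the log2 differences were -4.09 in wild-type and -4.05 in PPARα-null liver, in place of -4.43 and -5.73. Both fasted values lie under that higher floor, so these differences only set the fed values against 64 units. Hsd3b5 read 4580 units in fed wild-type, 273 units in fasted wild-type, 3864 units in fed PPARα-null and 353 units in fasted PPARα-null liver. It was 16.8-fold lower with fasting in wild-type (rank 10 from the lowest) and 10.9-fold lower in PPARα-null liver (rank 24). Hsd3b3 read 191 units in fed wild-type, 50.3 units in fasted wild-type, 151 units in fed PPARα-null and 16.4 units in fasted PPARα-null liver, and was 3.81-fold and 9.19-fold lower with fasting. With the higher floor its log2 differences were -1.58 and -1.24 in place of -1.93 and -3.20, again with both fasted values under that floor.

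A further probe set names Hsd3b6, Hsd3b3 and Hsd3b2 together and belongs to none of them alone. It read 569, 80.4, 598 and 12.7 units in fed wild-type, fasted wild-type, fed PPARα-null and fasted PPARα-null liver. It was 7.07-fold lower with fasting in wild-type and at least 37.4-fold lower in PPARα-null liver, where the fasted array lay under the floor. The Hsd3b genes are close copies and the Hsd3b3 probe set carries a suffix that marks possible matches to several transcripts, so the separate values of the family are uncertain.

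The Hsd3b genes did not share a genotype difference in the fasted state. In fasted PPARα-null liver Hsd3b2 was 2.52-fold and Hsd3b3 3.06-fold below fasted wild-type liver, and the shared probe set at least 5.03-fold lower, whereas Hsd3b5 was 1.29-fold higher, which did not reach the threshold. The Hsd3b2 and Hsd3b3 differences rest on values of 50.5 against 20.0 and 50.3 against 16.4 units. Both became 0 with a floor of 64 units, which lies above all of these values and so cannot compare them. In the fed state the log2 differences were -0.03 for Hsd3b2, -0.34 for Hsd3b3 and -0.25 for Hsd3b5, all below the threshold.

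**Figure D2:**
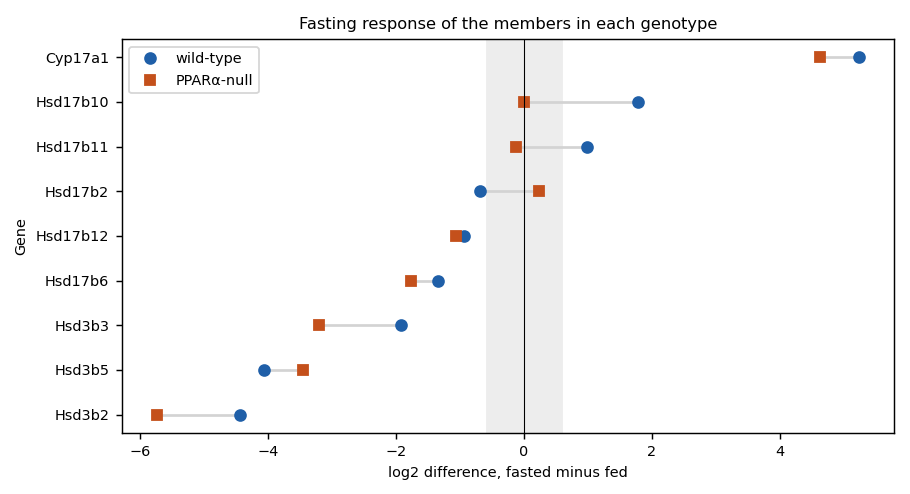
Log2 difference between fasted and fed liver for the 9 measured members, in wild-type (blue circles) and PPARα-null (orange squares) pools, ordered by the wild-type value. The grey band spans differences under 1.5-fold. Hsd3b2 lies furthest to the left at -4.43 and -5.73, Cyp17a1 furthest to the right at 5.24 and 4.62, and Hsd17b10 is at 1.79 in wild-type and at 0 in PPARα-null liver.

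Hsd17b2 and Hsd17b6 encode membrane-bound enzymes that act on sex steroids. Hsd17b2 oxidises estradiol to estrone and testosterone to androstenedione. It read 1774 units in fed wild-type, 1097 units in fasted wild-type, 2114 units in fed PPARα-null and 2476 units in fasted PPARα-null liver. The fasted wild-type array was the lowest and the fasted PPARα-null array the highest of the 4. Hsd17b2 was 1.62-fold lower with fasting in wild-type liver and 1.17-fold higher in PPARα-null liver, the latter within the threshold. It was the 1 member past the threshold that was higher in fasted PPARα-null than in fasted wild-type liver, by 2.26-fold, while the fed genotypes differed by 1.19-fold.

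The summed Kupffer cell markers had the same order of groups as Hsd17b2, and 5 of the 9 measured markers (Clec4f, C1qa, C1qb, C1qc and Csf1r) had it singly. Apart from C1qb these 5 were dim, at 26.2 to 81.8 units. For C1qc the order rested on nearly equal fed values, 32.994 units in wild-type and 33.055 units in PPARα-null liver. The summed intensity of the 9 measured of 10 Kupffer cell and macrophage markers was 833 units in fed wild-type, 502 units in fasted wild-type, 860 units in fed PPARα-null and 1101 units in fasted PPARα-null liver. Without C1qb, the brightest of them, the sum was 638, 406, 628 and 758 units. Fed PPARα-null then lay below fed wild-type liver, so the order of Hsd17b2 was lost. Of these 9 markers, 8 were at least 1.5-fold higher (8.58% of all genes) and 0 lower (13.6% of all) in fasted PPARα-null than in fasted wild-type liver, with Cd68 at the floor on all arrays. Most of the 8 were dim in fasted wild-type liver. There Marco was at the floor, against 24.1 units in fasted PPARα-null liver (at least 1.51-fold). Clec4f, C1qa, C1qc and Csf1r read 26.2 to 49.6 units there, and Cd5l, C1qb and Vsig4 75.0 to 139 units. The corresponding sums were 570, 477, 533 and 777 units for 6 of 7 endothelial markers, and 1306, 1355, 1578 and 2116 units for 5 of 8 stellate cell and fibroblast markers, of which Col1a1, Des and Lrat were at the floor. Both sums were carried by 1 gene: without Stab2 the endothelial sum was 320, 163, 330 and 140 units, lowest in fasted PPARα-null liver, and without Dcn the stellate sum was 245, 180, 360 and 240 units, highest in fed PPARα-null liver. None of the 6 endothelial, 5 stellate or 9 hepatocyte markers had the order of Hsd17b2 singly. Of 6 cholangiocyte markers only Sox9 was measured, at 20.7 to 33.9 units. The 9 measured of 10 hepatocyte markers summed to 102164, 107301, 100368 and 123511 units, also highest in fasted PPARα-null liver. The part of these cells in the Hsd17b2 values was not tested. In pooled tissue RNA, fewer cells of a type and less RNA per cell cannot be told apart.

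**Figure D3:**
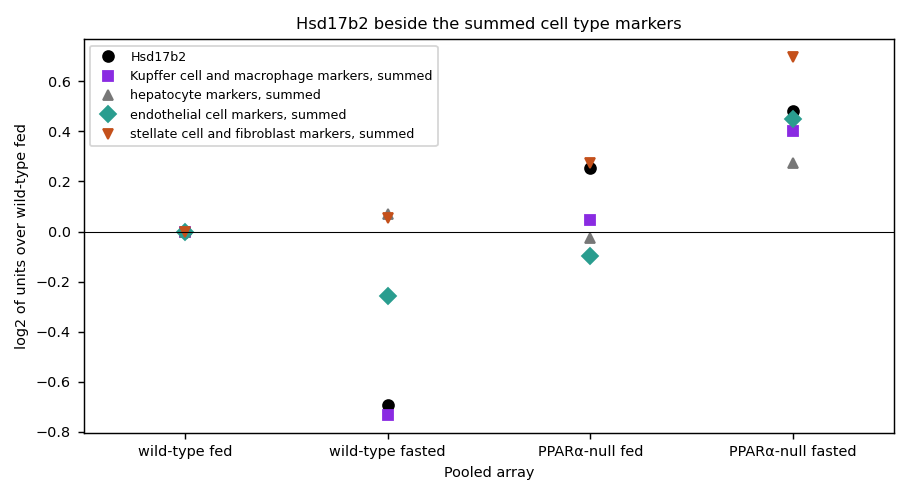
Intensity of Hsd17b2 (black circles) and summed intensity of the measured markers of 4 cell types on each pooled array, as log2 of the units over fed wild-type liver. In fasted wild-type liver Hsd17b2 is at -0.69 and the Kupffer cell sum at -0.73, and in fasted PPARα-null liver they are at 0.48 and 0.40, with the stellate cell sum at 0.70 and the hepatocyte sum at 0.27.

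Hsd17b6 encodes a dehydrogenase that oxidises androstanediol back to dihydrotestosterone. It read 717 units in fed wild-type, 282 units in fasted wild-type, 737 units in fed PPARα-null and 217 units in fasted PPARα-null liver. The fasted arrays were below the fed arrays in both genotypes, 2.55-fold in wild-type and 3.39-fold in PPARα-null liver. The genotypes differed by 1.03-fold in the fed and 1.29-fold in the fasted state. A second Hsd17b6 probe set stayed between 7.48 and 7.77 units, below the floor on all arrays, and gave no comparison.

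Hsd17b10, Hsd17b11 and Hsd17b12 encode enzymes of the 17β group that are tied to lipid metabolism. Hsd17b10 is a mitochondrial enzyme that dehydrogenates short and branched 3-hydroxyacyl-CoA, as in isoleucine breakdown, and is a subunit of mitochondrial ribonuclease P. Hsd17b11 oxidises 17β-hydroxysteroids and resides on lipid droplets and the endoplasmic reticulum. Hsd17b12 reduces 3-ketoacyl-CoA in the elongation of long fatty acids and can reduce estrone to estradiol.

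Hsd17b10 read 1113 units in fed wild-type, 3840 units in fasted wild-type, 1139 units in fed PPARα-null and 1138 units in fasted PPARα-null liver. The fasted wild-type array stood alone above 3 nearly equal arrays. Hsd17b10 was 3.45-fold higher with fasting in wild-type liver and differed by 1.00-fold in PPARα-null liver, so that it was 3.37-fold lower in fasted PPARα-null than in fasted wild-type liver. A second probe set, which carries a suffix for possible matches to several transcripts, read 253, 1420, 282 and 212 units in the same order of groups and was 5.62-fold higher with fasting in wild-type and 1.33-fold lower in PPARα-null liver. Both probe sets therefore had the fasted wild-type array as the highest.

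Hsd17b11 read 2173 units in fed wild-type, 4301 units in fasted wild-type, 1102 units in fed PPARα-null and 1013 units in fasted PPARα-null liver. Both PPARα-null arrays lay below both wild-type arrays. It was the 1 member past the threshold between the fed genotypes, 1.97-fold lower in PPARα-null liver, and was 4.24-fold lower in the fasted state, at rank 77 from the lowest among all measured genes. With fasting it was 1.98-fold higher in wild-type and 1.09-fold lower in PPARα-null liver. A dimmer probe set read 31.9, 152, 19.9 and 21.1 units and had the same order of genotypes, 1.60-fold lower in the fed and 7.17-fold lower in the fasted PPARα-null pool.

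Hsd17b12 read 1551 units in fed wild-type, 806 units in fasted wild-type, 1296 units in fed PPARα-null and 622 units in fasted PPARα-null liver. It was 1.92-fold lower with fasting in wild-type and 2.08-fold lower in PPARα-null liver, and the genotypes stayed within the threshold, at 1.20-fold in the fed and 1.30-fold in the fasted state. Its second probe set read 521, 248, 458 and 196 units, with 2.10-fold and 2.34-fold lower values in the fasted arrays.

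The difference of the fasting response, taken as the log2 response in PPARα-null minus that in wild-type liver, was at least 1.5-fold negative for 5 of the 9 genes (14.9% of all measured genes) and at least 1.5-fold positive for 2 (9.14% of all). It was -1.79 for Hsd17b10 and -1.11 for Hsd17b11, genes whose wild-type response was upward and whose PPARα-null response was near 0. It was -1.30 for Hsd3b2 and -1.27 for Hsd3b3, genes that were lower with fasting in each genotype and lower still in PPARα-null liver. With a floor of 64 units the differences turned to 0.032 and 0.34. The fasted values of both genes lie under that floor, so these numbers are the fed genotype differences with the sign reversed. That floor therefore cannot compare the fasting responses of these genes. Cyp17a1 was the fifth, at -0.62, and no longer passed the threshold with centred arrays (-0.46), quantile normalization (-0.52) or a lowess trend removed (-0.56), each of which left 4 genes. The positive values were 0.92 for Hsd17b2 and 0.62 for Hsd3b5. Hsd17b6 (-0.41) and Hsd17b12 (-0.11) were within the threshold.

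**Figure D4:**
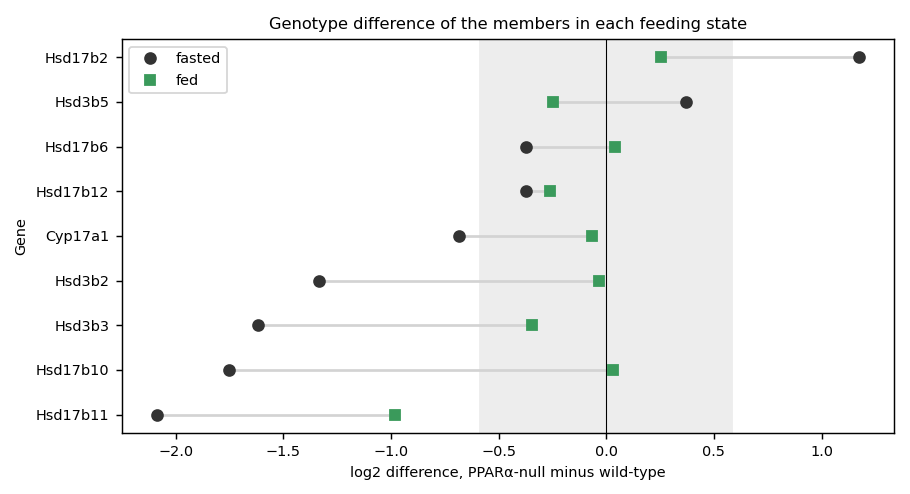
Log2 difference between PPARα-null and wild-type liver for the 9 measured members in the fasted (dark circles) and fed (green squares) state, ordered by the fasted value, with the grey band spanning differences under 1.5-fold. The fed values lie inside the band except that of Hsd17b11 at -0.98, and the fasted values reach from -2.09 for Hsd17b11 to 1.18 for Hsd17b2.

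Since the study concerned a receptor that binds a direct repeat of AGGTCA with 1 base between the copies, the 250 bases before each annotated start were searched for these letters on both strands. RefSeq windows existed for 8 of the 10 members, in 10 windows, and not for Cyp17a1 and Hsd17b2 in the table used. None of the 10 windows held AGGTCA, which 14.0% of 32851 windows of all genes did, and none held the repeat with at most 2 of its 12 fixed bases changed, which 3.24% of all windows did. The 2 windows of Hsd3b3 were identical at 248 of 249 aligned bases, and those of Hsd17b6 overlap. With so few separate windows, finding none cannot be told apart from these shares. The windows of Hsd17b10 and Hsd17b11 are printed because these genes had the fasting response that was near 0 in PPARα-null liver. Capitals mark the 13 bases closest to the repeat, read on the opposite strand, with 4 mismatches in Hsd17b10 and 3 in Hsd17b11. Within 3 mismatches 21.3% and within 4 mismatches 74.5% of all windows had such a stretch. The windows lie at chrX:152001646-152001895 on the plus strand for Hsd17b10 and at chr5:104021797-104022046 on the minus strand for Hsd17b11 (GRCm38.p6).

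Hsd17b10: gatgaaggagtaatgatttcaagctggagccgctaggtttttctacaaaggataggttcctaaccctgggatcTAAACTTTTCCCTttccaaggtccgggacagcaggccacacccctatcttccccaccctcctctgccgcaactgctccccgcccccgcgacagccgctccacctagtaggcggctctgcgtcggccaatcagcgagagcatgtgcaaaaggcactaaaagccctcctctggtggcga
Hsd17b11: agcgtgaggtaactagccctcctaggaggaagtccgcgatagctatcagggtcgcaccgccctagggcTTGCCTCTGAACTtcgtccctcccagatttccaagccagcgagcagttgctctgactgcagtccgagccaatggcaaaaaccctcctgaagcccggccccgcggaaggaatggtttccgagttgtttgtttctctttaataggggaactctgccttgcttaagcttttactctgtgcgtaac

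A stretch found or missed here says only which letters stand in these windows, and sequence further away was not searched.

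The genes whose 4 values ran most like those of a member were found by the root mean square difference of the log2 values, after each gene's own mean was subtracted, among 3807 other genes that reached 64 units. With 4 arrays this likeness is a description. Nearest to Cyp17a1 were Lpin1 (0.38), St3gal5 (0.55) and Fkbp5 (0.59). Nearest to Hsd3b2 were Srebf1 (0.51), Ppp1r3c (0.60) and Mid1ip1 (0.62), and nearest to Hsd3b5 were Cela1 (0.29), Mid1ip1 (0.33) and Aqp8 (0.35). The matches of Hsd3b2 rest in part on values at or near the floor. In fasted PPARα-null liver Srebf1 and Ppp1r3c were at 16 units and Mid1ip1 at 19.5 units. Hsd3b3 ran closest to Ces1f (0.15). Hsd17b10 ran closest to the coactivator gene Ppargc1a (0.06), which read 23.1, 74.0, 21.9 and 23.7 units in fed wild-type, fasted wild-type, fed PPARα-null and fasted PPARα-null liver. Hsd17b11 ran closest to Hsd17b4 and Dhrs4 (both 0.15) and Pxmp4 (0.16), all genes of peroxisomal proteins. Hsd17b2 ran closest to Ctss (0.04), Mal2 (0.06) and Clec4f (0.06), of which Ctss and Clec4f are known from macrophages and Clec4f was on the Kupffer cell list. Hsd17b6 ran closest to Nudt2 (0.06) and Hsd17b12 to Slc46a1 (0.05).

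A list of 31 other steroid-converting enzymes was read for comparison, of which 22 had a probe set of their own and 15 were measured. Between the fasted genotypes 7 of the 15 were lower (13.6% of all genes) and 0 higher (8.58% of all) in PPARα-null liver, with a median log2 difference of -0.44 beside -0.01 for all genes. Hsdl2, a peroxisomal dehydrogenase-like protein gene whose probe set may match several transcripts, read 404, 1153, 214 and 213 units in fed wild-type, fasted wild-type, fed PPARα-null and fasted PPARα-null liver and had a fasted genotype difference of -2.44. Rdh16, whose enzyme oxidises retinol and 3α-hydroxysteroids, read 90.5, 472, 92.0 and 91.8 units (-2.36), and Hsd17b4, the multifunctional enzyme of peroxisomal β-oxidation, 3409, 5281, 1617 and 1605 units (-1.72). These genes had the pattern of Hsd17b10 or Hsd17b11, with an upward fasting response in wild-type liver and a log2 response between -0.01 and 0 in PPARα-null liver.

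Of the 7 measured aldo-keto reductases of this list, 4 were lower with fasting in wild-type liver (8.29% of all genes) and 5 in PPARα-null liver (18.0% of all). In either genotype 0 were higher (8.20% and 12.4% of all). Akr1c14, a 3α-hydroxysteroid dehydrogenase gene, read 5672, 2542, 5244 and 865 units, and Akr1c20 read 1920, 780, 1935 and 253 units. Their fasting responses were -1.16 and -1.30 in wild-type and -2.60 and -2.93 in PPARα-null liver. As for Hsd3b2 and Hsd3b3, the fasted PPARα-null array was the lowest and the fasted wild-type array the next. With fasting 3 of the 15 genes were higher and 4 lower in wild-type liver (8.20% and 8.29% of all genes), and 0 higher and 6 lower in PPARα-null liver (12.4% and 18.0% of all), among the latter Akr1c13 at -1.74 and the 5β-reductase gene Akr1d1 at -1.51. Between the fed genotypes Hsd17b4 (-1.08) and Hsdl2 (-0.92) were lower (2.12% of all genes) and 0 higher (2.38% of all). Hsd11b1, the enzyme gene that reactivates glucocorticoids, stayed within the threshold in each comparison, between 4707 and 6009 units. The Akr1c genes are close copies too, so that the value of any 1 of them is uncertain.

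**Figure D5:**
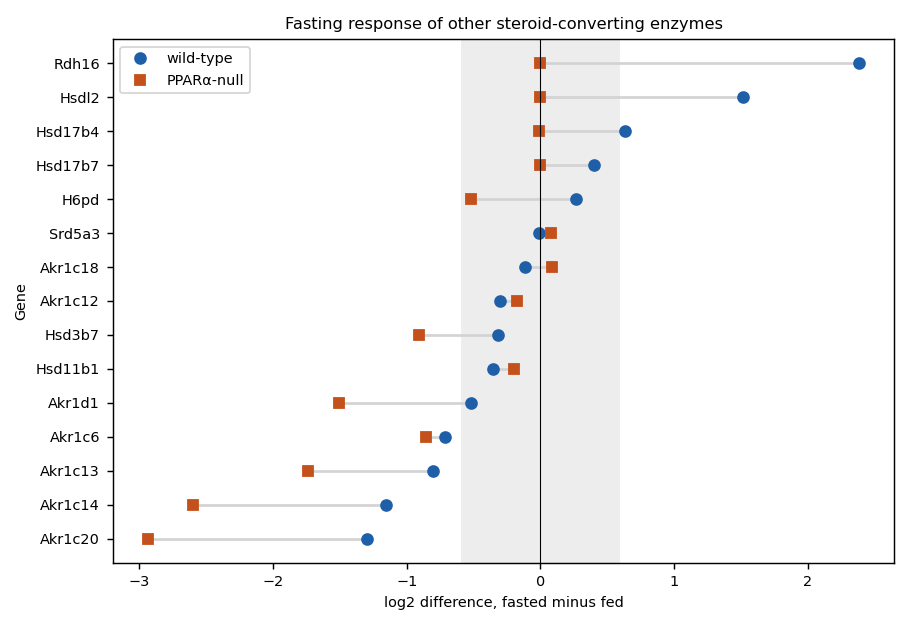
Log2 difference between fasted and fed liver for the 15 measured genes of the list of other steroid-converting enzymes, in wild-type (blue circles) and PPARα-null (orange squares) pools, with the grey band spanning differences under 1.5-fold. Rdh16 and Hsdl2 lie at 2.38 and 1.51 in wild-type liver and near 0 in PPARα-null liver, and Akr1c20 at -1.30 and -2.93.

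Genes that surround these steps were read as short lists. Of 13 genes of electron donors and cholesterol supply, 6 were measured, and 1 was lower and 0 higher in fasted PPARα-null liver, the cholesterol-binding protein gene Tspo at -1.44, a share near the 13.6% of all genes that were lower. With fasting the sterol carrier gene Stard4 (-2.73 and -1.89) and the cytochrome b5 gene Cyb5b (-1.90 and -2.31) were lower in wild-type and PPARα-null liver, and Tspo was higher in wild-type liver (0.85). Of 12 genes of steroid conjugation 5 were measured, with 2 higher and 0 lower in fasted PPARα-null liver (8.58% and 13.6% of all genes). Sult1e1, the estrogen sulfotransferase gene, read 19.6, 79.6, 371 and 1636 units, and Ugt2b1 had a difference of 0.61. Of 10 receptor and carrier genes 4 were measured. The corticosteroid-binding globulin gene Serpina6 was the 1 past the threshold, at 0.66 between the fasted genotypes (8.58% of all genes were higher). With fasting it was at -1.73 in wild-type and -1.16 in PPARα-null liver (8.29% and 18.0% of all were lower).

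Hsd3b5 was also set beside genes known for sex-biased expression in mouse liver. Of 15 male-biased genes 9 were measured, and with fasting 5 were lower and 0 higher in wild-type liver (median -0.79), against 3 lower and 1 higher in PPARα-null liver (median -0.02). Over all genes 8.29% were lower and 8.20% higher in wild-type liver (median 0), and 18.0% lower and 12.4% higher in PPARα-null liver (median -0.01). Elovl3 was lower in each genotype, at -2.21 and -2.59, as was Hsd3b5. Nudt7, whose probe set may match several transcripts, was also lower in each, at -0.81 and -0.84. Slco1a1 had values of -1.01 and -0.02 and C6 of -0.83 and 0.63, whereas Susd4 had values of -0.27 and -1.10. Of 15 female-biased genes 3 were measured, none of them at 64 units on any array. Acot3 of that list reached 47.9 units in fasted wild-type liver and did not exceed the floor elsewhere.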

How the data were processed

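Liver RNA of 4 groups of mice, 2 genotypes by 2 feeding states, was measured on 4 Affymetrix MOE430A arrays of pooled RNA, grouped by sample title. The authors deposited linear intensities per probe set. They had run GCRMA (2.20, from the submitters' processing notes), a method that corrects background by probe sequence, normalizes quantiles and summarizes probes. The set of arrays that shared this normalization is unknown here. The sources differ on whether each pool held all 5 mice.

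Values were converted to log2 here. Of 22690 rows, 64 were controls, 20393 named 1 gene, 691 several and 1606 none. A gene took its single-gene probe set of highest mean log2 value, lower values were raised to a floor of 16 units (log2 of 4), and a fold against a value at the floor is written as at least. The threshold of 1.5-fold followed the study's methods for pooled arrays. No test was run. The number of arrays limits the precision. The members, the 13 gene lists and the rules were chosen with earlier results of these data known. Named genes were all members, Ppara, the 3 genes of nearest pattern per member with a span of at least 1 in log2 (up to 3 printed), and, for each list and comparison described, up to 4 genes with the largest differences and at least 64 units. Genes named beyond this rule (Hsd11b1, Acot3 and the cell type markers) were chosen after their values were seen. Promoter windows came from RefSeq (GRCm38.p6). No protein sequences were used. Alternatives were a 2-fold threshold, no floor or a floor at log2 of 6, quantile normalization, centring on bright probe sets, removal of a lowess trend (fraction 0.3), the mean of a gene's probe sets and leaving out suffixed probe sets. Leaving out the brightest marker of each cell type list was added after the data were seen. The procedure was tested on simulated data. Python 3.11.15, numpy 2.4.6, pandas 2.3.3, statsmodels 0.14.6, matplotlib 3.10.9 and biopython 1.88 were used.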

Additional observations from a re-analysis of the deposited data

Results flagged for a closer look

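The fasting response had opposite signs in the genotypes for 2 genes whose responses also differed by at least 1.5-fold, with signs read at 2 decimals. At that rounding Hsd17b10, with 1.79 in wild-type liver, was at 0 in PPARα-null liver and was not counted. Hsd17b2 had a log2 fasting response of -0.69 in wild-type and 0.23 in PPARα-null liver. Hsd17b11 had a log2 fasting response of 0.98 in wild-type and -0.12 in PPARα-null liver. This combination was chosen after the values were seen. The opposite sign of Hsd17b11 depended on the processing, since its PPARα-null value was 0.0092 with centred arrays and its second probe set gave 0.09. With 1 array per group these differences were not tested, and both PPARα-null values were within the 1.5-fold threshold.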

How the results depend on the processing

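Counts of members past the threshold stayed within 1.5 times the original in 76 recounts and moved further in 4. Among the 76, the 10 recounts without a floor could not move, because no probe set used for a member lay under it. With a floor of 64 units, the number lower in fasted PPARα-null than in fasted wild-type liver was 3 in place of 5, and the number with a negative difference of the fasting response was also 3 in place of 5, since values of Hsd3b2 and Hsd3b3 in the fasted arrays lie under that floor. In the difference of the fasting response Hsd3b2 then turned to 0.032 and Hsd3b3 to 0.34, values set by the fed arrays alone. With a 2-fold threshold, 0 members in place of 1 were lower in fed PPARα-null liver and 0 in place of 2 had a positive difference of the fasting response. Of 355 recomputed member values, 339 kept their side of the threshold, 14 no longer passed it and 2 that had passed it turned, both with the floor of 64 units. Many of the 339 could not differ. The 45 values without a floor and the 40 without suffixed probe sets repeated the original values. So did the means for members with only 1 probe set, and the 2-fold setting changed only the threshold. Of the 339, 6 changed sign within the threshold, for the PPARα-null fasting response of Hsd17b10 and Hsd17b11 and the difference of the fasting response of Hsd17b12. Of the list medians 434 stayed and 36 moved. Without suffixed probe sets Hsd3b3 had no value. Centring raised the fasted PPARα-null array by 0.10 in log2. No array could be left out. No paired analysis was possible because each group holds 1 array and the values come from no test.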
